A study of Mus musculus with 203 samples.

Results

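The neurons described here were ACV cardiac motor neurons of the mouse brainstem that carried transcripts of Bche, divided into those with and those without transcripts of Calb1. The series held 98 neurons that the authors assigned to the ACV type, beside 53 ACP and 52 laryngeal neurons, and 88 of the 98 had at least 1 Bche read. The split was chosen by the measured values themselves: 40 neurons had at least 1 Calb1 read and are called Calb1-positive, and 48 had 0 and are called Calb1-negative. The other 10 ACV neurons had 0 Bche reads, and 4 of these held Calb1. Bche had only 1 to 9 reads in 7 Calb1-positive and 4 Calb1-negative neurons. Levels of Calb1 and the presence of Bche are therefore a description of how the groups were made.

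All neurons came from the nucleus ambiguus (Amb) of wild-type C57BL/6NCrl mice aged postnatal day 2 to 4, which had received fluorescent cholera toxin B at postnatal day 1. Tracer placed in the pericardial space marked Amb Cardiac neurons, which the study divided into ACP (53 neurons) and ACV, and tracer placed in the cricothyroid muscle of the larynx marked 52 Amb Laryngeal neurons. Each labelled cell body was drawn from a brain slice into a pipette and its RNA sequenced as a separate library by SmartSeq2, a full-length method without molecular identifiers. The labels name no mouse for a neuron, so each group is counted as 1 sample. Differences between groups are given with the spread over neurons and with no p-value, and the intervals of shares are exact binomial 95% intervals that cover counting error only.

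Calb1 encodes calbindin, a cytosolic protein with EF-hand motifs that binds and buffers calcium, and it is widely used to mark classes of neurons. Bche encodes butyrylcholinesterase, a secreted enzyme that hydrolyses choline esters, acetylcholine among them. Vagal motor neurons of the Amb release acetylcholine onto ganglia of the heart and airways, and those ganglia slow the heart and constrict the airways. In the study, calbindin served as a marker of ACP neurons and butyrylcholinesterase as a marker of ACV neurons. Its immunostaining found no detectable calbindin in ACV neurons, which were rich in butyrylcholinesterase. In that staining, absence of calbindin was part of how ACV neurons were defined, whereas here ACV is the assigned cluster. ACP neurons held calbindin and little butyrylcholinesterase. The values here are of RNA, not protein. Neurons holding transcripts of both are the subject of the comparison. In GRCm38 (mm10) with the GENCODE vM21 annotation, Calb1 (ENSMUSG00000028222.2) lies on the + strand of chromosome 4 at 15881264 to 15908064. Bche (ENSMUSG00000027792.11) lies on the - strand of chromosome 3 at 73635808 to 73708415. Neither shares exon bases with another annotated gene.

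The 88 neurons had 840315 to 3116633 counts each, with a median of 1874988. The ribosomal RNA locus Rn45s took 12.4% to 67.99% of them, so levels are CPM, counts per 1000000 of the counts outside Rn45s, which ranged from 450018 to 2226230 per neuron. At those depths 1 read was worth 0.449 to 2.22 CPM.

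Both groups carried the transcripts of cholinergic motor neurons. Chat, the enzyme that makes acetylcholine, and Slc18a3, its vesicular transporter, were detected in 40 of 40 Calb1-positive and 48 of 48 Calb1-negative neurons. Isl1, a motor neuron homeobox factor, was detected in 37 and 48.

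The markers that separate the types also placed both groups with ACV neurons. A median of 9 of 11 ACV markers was detected per neuron in each group (range 2 to 11 in Calb1-positive and 4 to 11 in Calb1-negative neurons), against a median of 3 in ACP neurons. Ghsr, the ghrelin receptor, was detected in 29 of 40 Calb1-positive neurons, 35 of 48 Calb1-negative neurons and 0 of 53 ACP neurons. Htr3b, a subunit of the ionotropic serotonin receptor, was detected in 22, 25 and 0 neurons of these groups. These markers and the type assignment come from the same libraries, so their agreement is no independent check.

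Of the 10 ACP markers, a median of 2 was detected per Calb1-positive neuron (0 to 7), 1 per Calb1-negative neuron (0 to 4) and 8 per ACP neuron (2 to 10). Summed over the 10 markers, the level had a median of 25.8 CPM in Calb1-positive, 2.63 CPM in Calb1-negative and 813.6 CPM in ACP neurons. On this list Calb1-positive neurons lay far nearer to the Calb1-negative neurons than to ACP neurons. Both groups were assigned to ACV from these same libraries, so this nearness is no independent check. Pappa2, a protease that cleaves insulin-like growth factor binding proteins, was detected in 3 of 40, 1 of 48 and 50 of 53 neurons in the order Calb1-positive, Calb1-negative and ACP. Onecut3, a homeobox factor, was detected in 2, 0 and 31 neurons. Uts2b, a urotensin II-related peptide, had the widest gap between the Calb1 groups, with 24 of 40 (interval 43.3% to 75.1%) against 13 of 48 (interval 15.3% to 41.8%).

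At least 5 of the 10 ACP markers were detected in 2 Calb1-positive neurons, in 0 Calb1-negative neurons and in 45 of 53 ACP neurons. The first of these 2 neurons held 7 ACP markers and 5 ACV markers, with Calb1 at 45.6 CPM and Bche at 117.2 CPM. The second held 5 ACP and 9 ACV markers, with Calb1 at 23.1 CPM and Bche at 35.5 CPM.

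**Figure D1:**
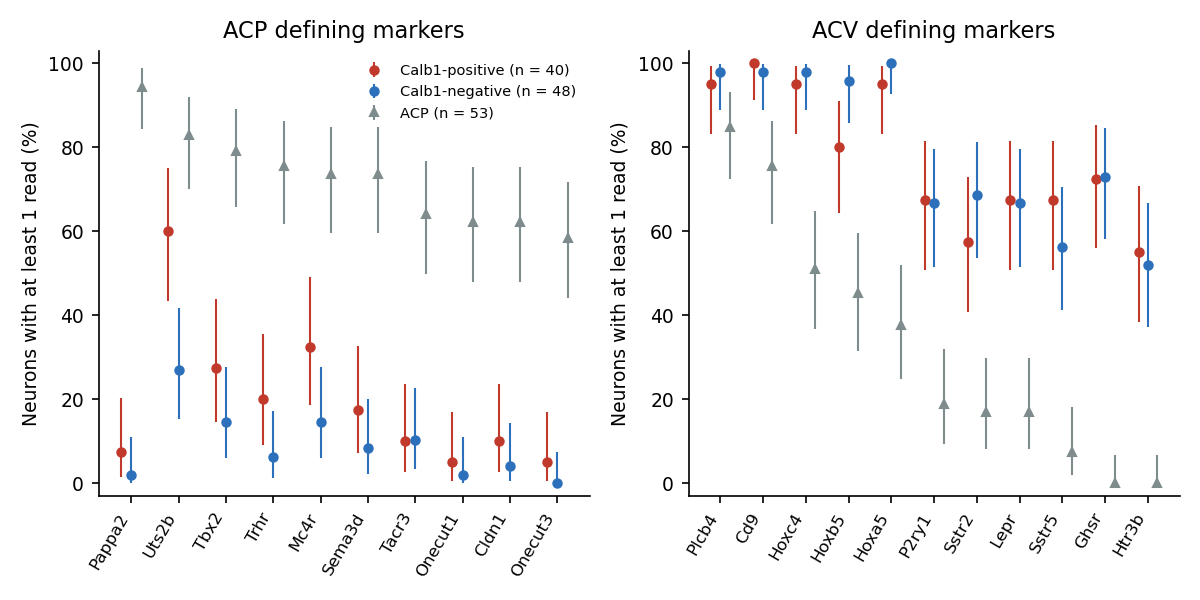
Percent of neurons with at least 1 read of each ACP marker (left) and ACV marker (right) in Calb1-positive ACV neurons, Calb1-negative ACV neurons and ACP neurons, with exact binomial 95% intervals as bars. Both ACV groups sat below ACP neurons for the 10 ACP markers and above them for the 11 ACV markers, and Uts2b showed the widest gap between the Calb1 groups.

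Calb1 was found in 40 of the 88 neurons, a share of 45.5% (interval 34.8% to 56.4%). The share was 77.4% in ACP neurons (41 of 53, interval 63.8% to 87.7%) and 44.2% in Amb Laryngeal neurons (23 of 52, interval 30.5% to 58.7%). The laryngeal neurons were shallower, with a median of 560892 counts outside Rn45s against 1244032 in the 88 ACV neurons and 1115375 in ACP neurons. With at least 10 reads required, the shares were 38.6% in ACV, 71.7% in ACP and 26.9% in laryngeal neurons, and with at least 100 reads they were 14.8%, 52.8% and 5.77%. At 10 or more reads, the intervals of ACV (28.4% to 49.6%) and laryngeal neurons (15.57% to 41.02%) overlapped, and that of ACP neurons (57.7% to 83.2%) lay above both. The study named Calb1 an ACP marker from these same libraries, which also gave the types. The higher share in ACP neurons is thus no independent check, and the intervals do not cover spread between mice.

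The 40 Calb1-positive neurons spanned 1 to 476 Calb1 reads, with a median of 52. In 6 neurons Calb1 had 1 to 9 reads, in 21 it had 10 to 99, and in 13 it had 100 or more. Just inside the limit lay 2 neurons with exactly 1 read and 1 neuron with 2 reads, and just outside lay the 48 with 0 reads. A count of 0 allowed up to 3 reads, which corresponded to 1.35 to 6.67 CPM across the Calb1-negative neurons, and the 10 highest neurons held 64.8% of all 3639 Calb1 reads of the group.

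The level of Calb1 ran from 0.942 CPM to 447.4 CPM over Calb1-positive neurons, with a median of 44.8 CPM. ACP neurons with Calb1 ran from 0.815 to 668.7 CPM with a median of 214.5 CPM, and laryngeal neurons with Calb1 from 1.04 to 334.3 CPM with a median of 44.5 CPM. The ranges overlapped, but only 5 of the 40 Calb1-positive neurons exceeded the median of ACP neurons with Calb1, and 0 exceeded every ACP neuron. Calb1 was named an ACP marker from these libraries, so its higher level in ACP neurons is no independent check. Where Calb1 was detected, its median in ACV neurons was close to that in laryngeal neurons.

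Bche did not separate the groups. Its level ran from 0.545 to 632.3 CPM in Calb1-positive neurons, with a median of 89.7 CPM, and from 1.32 to 411.6 CPM in Calb1-negative neurons, with a median of 81.2 CPM. The mean of log2(CPM + 1) was 5.84 ± 2.22 (SD, n = 40 neurons) in the first group and 6.01 ± 1.71 (SD, n = 48 neurons) in the second. The difference of -0.17 was smaller than either SD, and its sign changed with the read limits used. Spearman's rho between Calb1 and Bche levels was 0.01 over the 88 neurons and -0.01 over the 40 with Calb1, which share library depth and the Bche limit. In the same units, Bche was found in 23 of 53 ACP neurons, 19 of which also held Calb1.

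**Figure D2:**
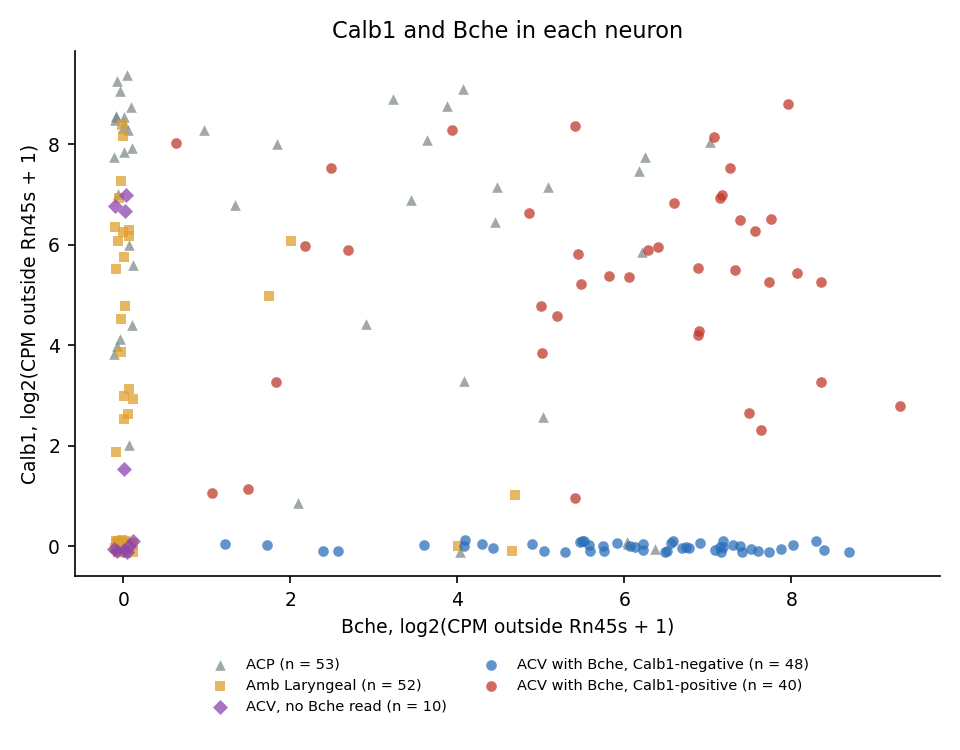
Level of Calb1 against level of Bche, both as log2(CPM outside Rn45s + 1), with 1 point per neuron and small jitter added to values of 0. Calb1-positive ACV neurons (n = 40) spread over the same range of Bche as Calb1-negative ones (n = 48), and their highest Calb1 values lay below the highest ACP values.

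The groups differed in how many genes each library held. Genes detected per neuron ran from 4687 to 12307 in Calb1-positive neurons, with a median of 8488, and from 4463 to 10198 in Calb1-negative neurons, with a median of 7454. The ranges overlapped, and 28 of 40 Calb1-positive neurons lay above the Calb1-negative median. Counts outside Rn45s did not follow the same order, with a median of 1071121 in Calb1-positive and 1294181 in Calb1-negative neurons. All counts, Rn45s included, did follow it, with medians of 1935877 and 1794345. Rn45s took a median of 39.9% of counts in the first group and 29.1% in the second.

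Thinning every neuron to the lowest total, 450018 counts outside Rn45s, gave medians of 8062 and 7121 genes, a gap of 941. The gap of 1034 was smaller in some subsets and larger in others, at 225 among neurons with no more than 900 Apoe counts, 290 among the 44 with the fewest genes, 337.5 among the 44 with the lower astrocyte sums and 2636 among the 44 with the higher sums. At that total, 38.2 of the 88 neurons (43.4%) were expected to keep a Calb1 read. Calb1 detection was 27.6% (interval 12.7% to 47.2%) in the 29 neurons with the fewest genes, 44.8% in the middle 29 and 63.3% (interval 43.9% to 80.1%) in the 30 with the most. By counts outside Rn45s the corresponding shares were 51.7%, 41.4% and 43.3%. Detection of Calb1 was more frequent where more genes were detected, with overlapping intervals. It was not more frequent where counts outside Rn45s were greater.

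Transcripts of astrocytes had higher medians in Calb1-positive neurons. Apoe, a lipid carrier made mainly by astrocytes in the brain, ran from 0 to 17456 counts with a median of 1359.5 in Calb1-positive neurons, and from 0 to 45046 counts with a median of 767.5 in Calb1-negative neurons. The mean counts were nearly equal, at 2163 and 2119. The difference of mean log2(CPM + 1) was 1.23, while the log2 ratio of mean CPM was 0.17. Over 1800 Apoe counts were found in 15 of 40 and 9 of 48 neurons. The summed level of 11 astrocyte markers had a median of 2765 CPM (795 to 19989) against 1721 CPM (128.98 to 31623). The ranges overlapped almost wholly, and 29 of 40 Calb1-positive neurons lay above the Calb1-negative median.

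Calb1 was detected in 27.6% of the 29 neurons with the lowest astrocyte sum, 44.8% of the middle 29 and 63.3% of the 30 with the highest. Among neurons with Calb1, the median level in these classes was 40.5, 42.1 and 61.2 CPM. Over the 88 neurons, Spearman's rho of the Calb1 level was 0.34 with genes detected, 0.34 with the astrocyte sum and -0.15 with counts outside Rn45s. All of these measures come from the same libraries.

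Transcripts listed as markers of other classes of neuron moved with Calb1 as well, though the other Amb types also carried them. The summed level of 7 markers of glutamate, GABA and glycine neurons ran from 2.34 to 1244 CPM with a median of 171.4 CPM in Calb1-positive neurons, and from 0 to 1799 CPM with a median of 52.2 CPM in Calb1-negative neurons. Gad2, which makes GABA, was detected in 30 of 40 against 18 of 48 neurons, and Slc17a6, a vesicular glutamate transporter, in 33 against 28. Slc17a6 was also detected in 43 of 52 laryngeal and 35 of 53 ACP neurons, and Gad2 in 39 and 31 of these. Between the Calb1 groups, the difference of mean log2(CPM + 1) was 1.55 for Gad2 and 1.93 for Slc17a6, and after thinning to equal depth it was 1.32 and 1.94. All 6 markers detected in at least 25% of either group had positive differences, but they were unequal. Slc32a1 differed by 0.49 and Slc6a5 by 0.23, where the median of all genes was 0.35. Mean Slc6a5 levels had the other order, at 7.41 CPM in Calb1-positive and 31.3 CPM in Calb1-negative neurons.

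Counting how many of Slc17a6, Gad1, Gad2, Slc32a1 and Slc6a5 a neuron held gave a similar order. Calb1 was detected in 0 of 8 neurons without any of these (interval 0 to 36.9%), 3 of 21 with 1 (interval 3.05% to 36.3%), 15 of 23 with 2 (interval 42.7% to 83.6%), 7 of 15 with 3 (interval 21.3% to 73.4%) and 14 of 20 with 4 (interval 45.7% to 88.1%). Every Calb1-positive neuron thus held at least 1 of the 5 markers. The part that transcripts of astrocytes and other neurons play in the Calb1 reads was not tested.

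**Figure D3:**
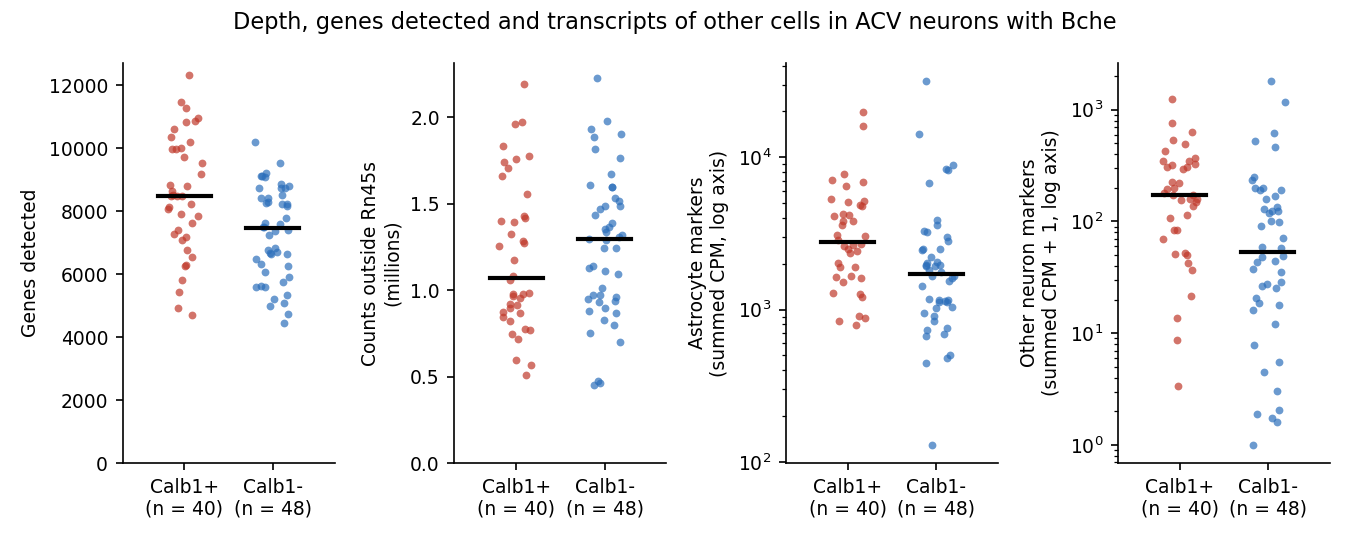
Genes detected, counts outside Rn45s, summed astrocyte markers and summed markers of other neurons in each Calb1-positive (n = 40) and Calb1-negative (n = 48) neuron, with black lines at the medians. Calb1-positive neurons had the higher median for genes detected (8488 against 7454) and for both marker sums, and the lower median for counts outside Rn45s.

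Neurons with 10 or more Calb1 reads held more genes than the others, with overlap at every step. Median genes detected were 7454 at 0 reads, 7196 at 1 to 9 reads, 8645 at 10 to 99 reads and 9529 at 100 or more reads. The median astrocyte sum was 1721, 2528, 2650 and 3619 CPM in the same order. The summed level of 57 genes that the study picked as enriched in ACV neurons was 18146, 15959, 16947 and 13194 CPM. The neuron with the fewest genes in the highest class had 4687, near the lowest of all 88, so the order did not hold for every neuron.

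Across the transcriptome, most genes were slightly higher in Calb1-positive neurons. Of the 11532 genes with a read in no fewer than 25% of the neurons of either group, 75.5% had a higher mean log2(CPM + 1), and the median difference was 0.35. The median gap in detection was 7.92 percentage points, higher in Calb1-positive neurons. A difference of at least 1 in mean log2(CPM + 1) was reached upward by 1327 genes (11.5%) and downward by 58 genes (0.503%). A gene that met the 25% limit in only 1 group could hardly count as higher in the other. With no detection minimum, 1331 of 17727 genes were higher and 58 lower by at least 1. Scaled to all counts with Rn45s included, the median of all genes was 0.20, and compared as log2 ratios of group mean CPM it was 0.04, with 902 genes higher and 372 lower by at least 1. Measured from the median of all genes, 443 genes lay at least 1 above it and 280 at least 1 below. No gene separated the groups without overlap, and 3 genes differed by more than the larger of the SDs over neurons, namely Caln1, Calb2 and Cfap97.

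Caln1 encodes calneuron, an EF-hand calcium sensor of the Golgi. Its level ran from 0 to 195.6 CPM with a median of 39.4 CPM in Calb1-positive neurons, and from 0 to 157.8 CPM with a median of 0 in Calb1-negative neurons. The mean log2(CPM + 1) was 4.36 ± 2.48 (SD, n = 40) against 1.56 ± 2.15 (SD, n = 48), a difference of 2.80. It was detected in 33 of 40 against 21 of 48 neurons, and 4 Calb1-negative neurons exceeded the Calb1-positive median.

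Calb2 encodes calretinin, a close relative of calbindin. It ran from 0 to 133.97 CPM with a median of 8.98 CPM in Calb1-positive neurons and from 0 to 47.9 CPM with a median of 0 in Calb1-negative neurons. Detection was 35 of 40 against 16 of 48 neurons. The difference of mean log2(CPM + 1) was 2.19, and 2.16 after thinning, with 3.15 ± 1.85 (SD, n = 40) against 0.97 ± 1.62 (SD, n = 48). Seen from the other side, Calb1 was detected in 35 of the 51 neurons with Calb2 (68.6%) and in 5 of the 37 without it (13.5%).

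Cfap97, named for an association with cilia and flagella, ran from 0 to 334.6 CPM with a median of 20.1 CPM in Calb1-positive neurons and from 0 to 102.8 CPM with a median of 0 in Calb1-negative neurons. It was detected in 32 of 40 against 14 of 48 neurons, and its difference was 2.46. The 3 genes were also compared within subsets. Among the 44 neurons with the lower astrocyte sums (14 Calb1-positive and 30 Calb1-negative), the differences were 2.52 for Caln1, 1.99 for Calb2 and 2.82 for Cfap97. Among the 44 neurons with the fewest genes (15 and 29), they were 1.86, 2.96 and 2.43.

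Genes that the study picked on these neurons as enriched in ACP or ACV were compared next. Of the ACP genes that passed the detection limit, 31 were higher by at least 1 in Calb1-positive neurons (25.6%, against 11.5% of all genes) and 0 were lower. Their median difference was 0.67, which is 0.32 above the median of all genes. ACP neurons exceeded Calb1-negative neurons by a median of 2.81 for the same genes. Summed ACP gene levels ran from 3083 to 12861 CPM in Calb1-positive neurons, with a median of 6523 CPM, from 1695 to 10742 CPM in Calb1-negative neurons, with a median of 5170 CPM, and from 8925 to 40538 CPM in ACP neurons, with a median of 17951 CPM.

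Among the ACP genes, Mab21l2, a developmental regulator, had the largest difference, 2.36, with a median of 28.6 CPM (0 to 336.1) against 0 CPM (0 to 79.9). It was detected in 34 of 40 against 21 of 48 neurons. Atp8a2, a phospholipid flippase, differed by 2.13, with medians of 21.02 and 0.31 CPM. The lowest were 2610316D01Rik at -0.68 and Zfhx4, a zinc finger homeobox factor, at -0.46. In the 44 neurons with the lower astrocyte sums the ACP genes had a median difference of 0.22 and all genes one of 0.07, while in the 44 with the higher sums these were 0.92 and 0.64.

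Of 57 ACV genes, all passed the detection limit, 35 were lower in Calb1-positive neurons, and the median difference was -0.23, which is 0.58 below the median of all genes. By at least 1, 4 were lower (7.02%, against 0.503% of all genes) and 2 were higher. The 4 lower genes were the homeobox genes Hoxa5, Hoxb5 and Pbx3 and Dgkg, a diacylglycerol kinase. The 2 higher genes were Tspan18, a tetraspanin, and Rgs10, a regulator of G protein signalling. The summed level ran from 7480 to 26814 CPM with a median of 14775 CPM in Calb1-positive neurons and from 6801 to 25273 CPM with a median of 18146 CPM in Calb1-negative neurons, and 12 of 40 lay above the median of the second group. These lists were chosen on these libraries and are not independent evidence of a direction.

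Hox genes set position along the body axis in the hindbrain and spinal cord. Of 39 Hox genes, 12 passed the detection limit, with a median difference of -0.18, 0 higher by at least 1 (against 11.5% of all genes) and 2 lower (16.7%, against 0.503%). Hoxb5 had a median of 85.7 CPM (0 to 498.9) in Calb1-positive and 162.1 CPM (0 to 2651) in Calb1-negative neurons, a difference of -1.22. Hoxa5 had medians of 308 and 424.7 CPM and a difference of -1.02, and Hoxc4 medians of 53.8 and 92.9 CPM and a difference of -0.89. The groups overlapped for all 3, and ACP neurons lay lower still, with mean log2(CPM + 1) of 1.52, 1.40 and 1.84. Among the 12 Hox genes, 3 had positive differences, the highest being Hoxa4 at 0.61 and Hoxb4 at 0.24. Hoxa4 had medians of 18.6 CPM in Calb1-positive and 3.90 CPM in Calb1-negative neurons.

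The Hox differences were unevenly spread over the neurons. Among the 44 with the fewest genes, Hoxb5 differed by -3.17 and Hoxa5 by -2.15, while among the 44 with the most genes they differed by 0.23 and -0.25. Summed Hox levels had a median of 868 CPM at 0 Calb1 reads, 894.4 CPM at 1 to 9, 616.9 CPM at 10 to 99 and 333.2 CPM at 100 or more. Isl1 showed a like pattern, with a difference of -0.98 over all 88 neurons, -2.23 among neurons with the fewest genes and -0.13 among those with the most.

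Most genes of the cholinergic motor neuron had slightly negative differences. Of 11 that passed the detection limit, 9 had negative differences, and the median was -0.22. Tubb3, a neuronal tubulin, had medians of 4586 and 4560 CPM and a difference of 0.01. Prph, an intermediate filament of peripherally projecting neurons, had medians of 1943 CPM (281.2 to 3378) and 2452 CPM (349.8 to 4102) and a difference of -0.52. Isl1 was the lowest at -0.98. Ret, the signalling receptor for GDNF family ligands, was the only one higher by at least 1, at 1.64, with medians of 70.1 and 35.5 CPM. The 10 genes picked as enriched in all Amb Cardiac neurons had a median difference of -0.29, with Cntn5, a contactin adhesion protein, lowest at -1.53.

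Calcium-binding proteins beyond Calb1 were examined as a family. Of 32 listed EF-hand genes, 26 passed, and 5 were higher by at least 1 (19.2%, against 11.5% of all genes), with a median difference of 0.50. Beside Caln1 and Calb2 these were Kcnip1, a potassium channel-interacting protein, at 1.39, Efhd2 at 1.18 and Vsnl1, a visinin-like sensor, at 1.09. S100a11 had the lowest difference, -0.52, with medians of 71.5 and 92.01 CPM.

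The summed level of the whole EF-hand list was nearly equal, with medians of 9075 and 8980 CPM. Of 32 calcium channel, pump and store genes that passed, 1 was higher by at least 1 (3.12%, against 11.5% of all genes), which was Orai1 at 1.19, a pore of store-operated calcium entry. Orai1 passed the detection limit only through Calb1-positive neurons (42.5% against 16.7%). The median of that list, 0.22, lay below that of all genes. Its lowest members were Orai2 at -0.64 and Cacna1c, an L-type channel subunit, at -0.52.

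Neuropeptide precursors held more of the larger differences. Of 22 that passed, 9 were higher by at least 1 (40.9%, against 11.5% of all genes) and 0 were lower, with a median difference of 0.60. Sst, somatostatin, ran from 0 to 1578 CPM with a median of 37.5 CPM in Calb1-positive neurons and from 0 to 231.5 CPM with a median of 1.14 CPM in Calb1-negative neurons. It was detected in 35 of 40 against 27 of 48 neurons and differed by 2.50. Cck, cholecystokinin, differed by 2.45, Npy by 2.27, Pnoc by 2.00 and Pdyn by 1.83. These peptides are common in interneurons of the brain. Pnoc passed the detection limit only through Calb1-positive neurons (60% against 18.8%). In laryngeal neurons Pnoc, Sst and Cck had mean log2(CPM + 1) of 6.91, 4.13 and 3.21. The same means were 2.75, 5.03 and 3.45 in Calb1-positive neurons. The source of these transcripts was not tested.

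The lowest differences of the list were those of 2 other genes. Scg2, a granin of dense-core vesicles, had medians of 1137 and 1342 CPM and a difference of -0.22, and Calcb, which encodes a form of CGRP, had medians of 9.98 and 22.2 CPM and a difference of -0.68. Neuropeptide precursors summed to medians of 4181 and 4179 CPM.

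Markers of astrocytes and of other neurons had the highest list medians. Of 11 astrocyte markers, 10 were higher by at least 1 (90.9%, against 11.5% of all genes) and the median difference was 1.60, with Slc1a3, the astrocytic glutamate transporter GLAST, at 2.58 and Aldh1l1 at 2.43. Of 6 markers of other neurons that passed, 4 were higher (66.7%), with a median of 1.33. Of 9 oligodendrocyte lineage markers, 3 were higher (33.3%), with a median of 0.85, led by the myelin gene Mbp at 2.41. Of 10 microglia markers, 4 were higher (40%), with a median of 0.82. C1qc, a microglia marker, passed the detection limit only through Calb1-positive neurons (50% against 14.6%). Of 9 vascular and blood markers, 0 passed the detection limit, and Cldn5, a tight junction protein of brain endothelium, was detected in 8 of 40 and 3 of 48 neurons.

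The summed levels overlapped between the groups for each of these lists. Oligodendrocyte lineage markers had medians of 467.8 CPM (16.4 to 9276) and 247.2 CPM (0 to 5987), and microglia markers had medians of 120.1 CPM (0 to 6474) and 100.6 CPM (0 to 9271). With the 24 neurons of over 1800 Apoe counts left out, 25 Calb1-positive and 39 Calb1-negative neurons remained, and the median difference was 1.12 for astrocyte markers and 0.93 for markers of other neurons.

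Immediate early genes are switched on by neurons and glia within minutes of stimulation or injury. Of 9 immediate early and injury genes that passed, 4 were higher by at least 1 (44.4%, against 11.5% of all genes) and 2 were lower by less than 1, with a list median of 0.48. Fos was detected in 23 of 40 against 7 of 48 neurons, with medians of 1.37 and 0 CPM and a difference of 1.59. It passed the detection limit only through Calb1-positive neurons (57.5% against 14.6%). Dusp1, a phosphatase induced with Fos, differed by 1.53. The 2 lower genes were Gadd45a at -0.25 and Hspa1a at -0.13. Of 75 cytosolic ribosomal protein genes that passed, 74 had positive differences, against 75.5% of all genes, with a median of 0.49. By at least 1, 2 were higher (2.67%, against 11.5%).

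**Figure D4:**
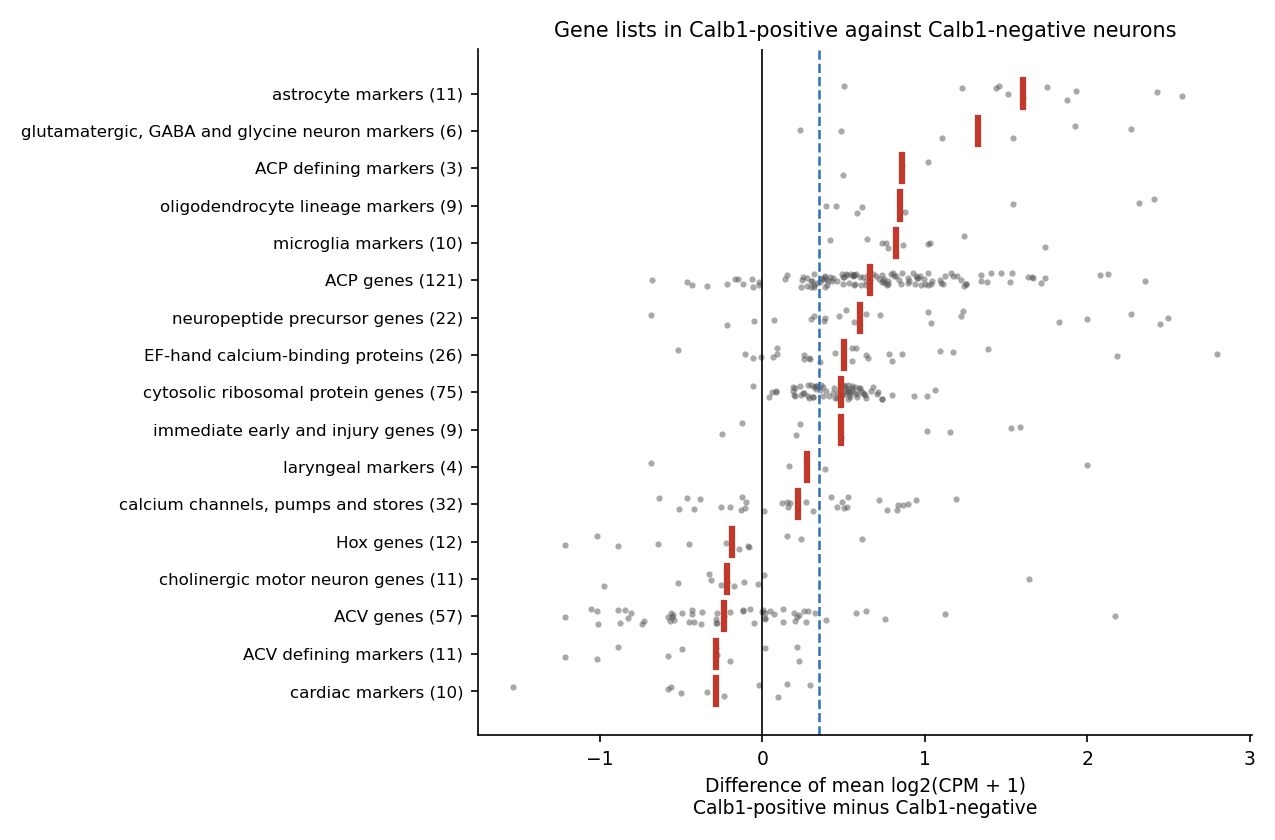
Difference of mean log2(CPM + 1), Calb1-positive minus Calb1-negative neurons, for each gene that passed the detection limit (grey points, number in brackets) and the median of each list (red line). The dashed blue line marks the median of all genes, 0.35, and list medians ran from -0.29 for cardiac markers to 1.60 for astrocyte markers.

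The 10 genes with the largest differences upward were Caln1, Sparc, Slc1a3, Nfix, Abcd4, Sst, Mfge8, Cfap97, Cck and Ptgds, with differences from 2.80 to 2.44. Sparc, a secreted matrix glycoprotein, had medians of 180.6 CPM (0 to 883.9) and 47.8 CPM (0 to 976.7) and was detected in 39 of 40 and 38 of 48 neurons. Nfix, a transcription factor, was detected in 31 and 15 neurons. Abcd4, a lysosomal transporter, was detected in 29 and 16, with medians of 31.3 and 0 CPM. Mfge8, a secreted protein that binds phosphatidylserine, was detected in 30 and 16, and Ptgds, a prostaglandin D synthase, in 33 and 29. For all 10 genes, ACP neurons lay between the Calb1 groups in mean log2(CPM + 1).

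The differences of 2 of these 10 varied with the astrocyte sum. In the 44 neurons with the lower sums, Nfix differed by 0.95 and Mfge8 by 1.01, against 3.30 and 2.41 in the 44 with the higher sums. Abcd4 differed by 2.55 and 2.30 in these same subsets, and Sparc by 2.02 and 2.19.

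The 10 genes with the largest differences downward were Rmst, Rgs11, Eml6, Trappc8, Cntn5, Galnt13, Asl, 2010315B03Rik, Ccnt2 and Tbc1d4, with differences from -1.70 to -1.44. Rmst, a long noncoding RNA, ran from 0 to 163.03 CPM with a median of 2.18 CPM in Calb1-positive neurons and from 0 to 449.6 CPM with a median of 21.4 CPM in Calb1-negative neurons. It was detected in 23 of 40 and 37 of 48 neurons. Rgs11, a regulator of G protein signalling, had medians of 107.7 CPM (0 to 1081) and 214.6 CPM (0 to 1224) and was detected in 31 and 44 neurons.

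Eml6, a microtubule-associated protein, had medians of 18.8 and 57.4 CPM, and 8 of 40 Calb1-positive neurons exceeded the Calb1-negative median. Trappc8, a subunit of a vesicle tethering complex, had medians of 2.06 and 20.001 CPM. Cntn5 had medians of 142.9 and 247.7 CPM. In the 44 neurons with the lower astrocyte sums, Rmst differed by -2.14, Eml6 by -2.73, Trappc8 by -2.94 and Ccnt2 by -2.73. In the 44 with the higher sums the differences were -1.20, -0.53, -0.26 and -0.05. The groups overlapped for each of the 20 genes.

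**Figure D5:**
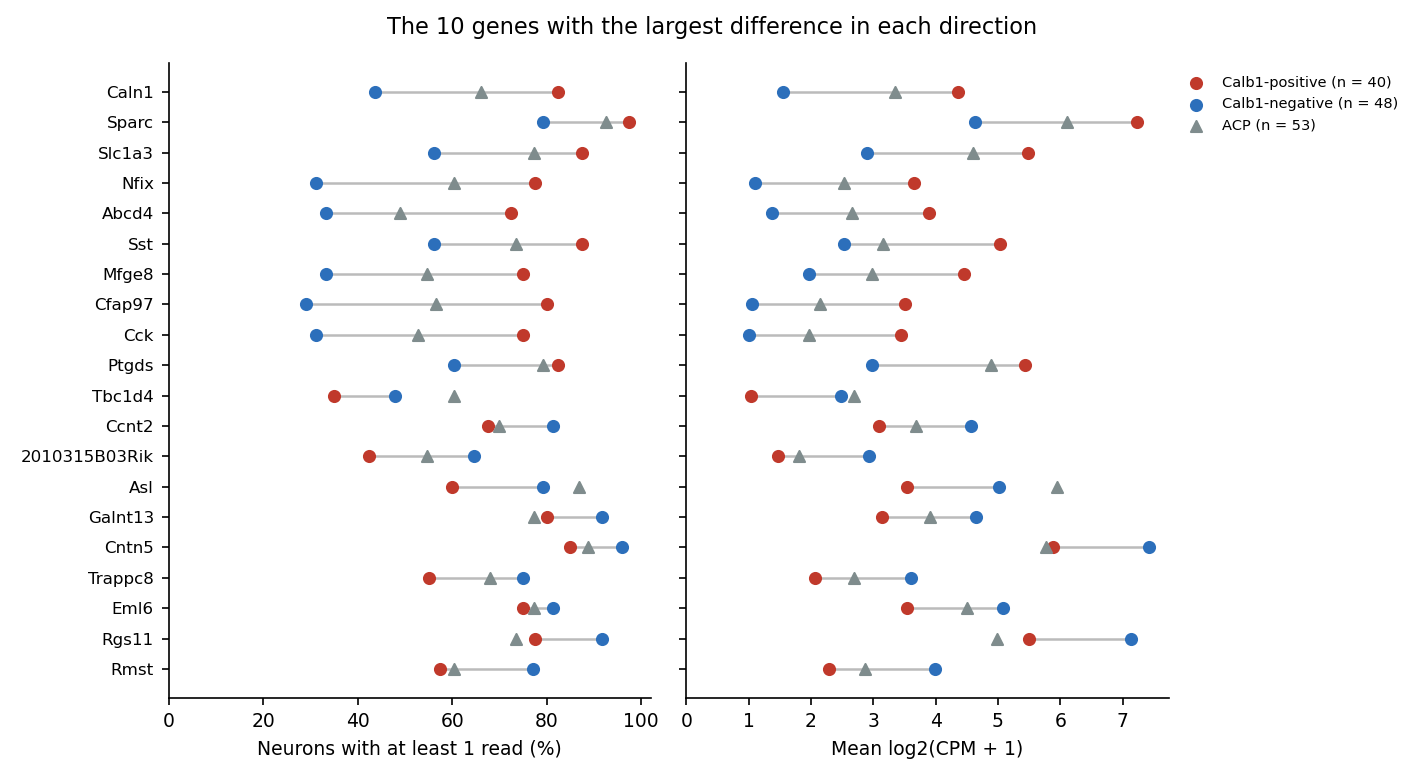
Percent of neurons with at least 1 read (left) and mean log2(CPM + 1) (right) of the 10 genes with the largest difference in each direction, for Calb1-positive and Calb1-negative ACV neurons and for ACP neurons. For the 10 upper genes, Caln1 to Ptgds, the ACP value lies between the Calb1 groups in both panels.

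The same division by Calb1 was made in the other neurons for reference. In Amb Laryngeal neurons, the 23 with Calb1 had a median of 7918 genes against 6960 in those without, and in ACP neurons the 41 with Calb1 had 8340 against 7171. The gap in genes detected was thus 1034 in ACV, 958 in laryngeal and 1170 in ACP neurons. Apoe kept this order in the medians of ACP neurons, at 1057 counts in the 41 with Calb1 and 822.5 in the 12 without. The means of these ACP groups had the other order, at 1258 and 1420 counts. In laryngeal neurons the order of Apoe was reversed, with medians of 476 and 605 counts. The markers of other neurons were higher with Calb1 in each type, at 431 against 244.7 CPM in laryngeal and 108.7 against 44.5 CPM in ACP neurons. Summed ACP genes were lower with Calb1 in both other types, at 17283 against 21412 CPM in ACP and 10949 against 13975 CPM in laryngeal neurons. In ACV neurons they were higher with Calb1, at 6523 against 5170 CPM. Whether the gaps differ between the types was not tested.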

How the data were processed

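Single Amb neurons were profiled by SmartSeq2. Per the study's methods, the authors trimmed reads with Skewer, aligned them to mm10 with STAR 2.6.1d and deposited raw counts per gene for 203 neurons, with a tracer target and an assigned cluster for each. The counter and annotation are not given in the sources used here. The methods name a limit of 1800 Apoe counts, which 39 of the 203 deposited neurons exceed. The deposited CPM table was not used because its columns do not sum to 1000000.

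From the counts (24029 genes) CPM was computed on totals without Rn45s, and a gene's difference was the mean log2(CPM + 1) of Calb1-positive minus Calb1-negative neurons, with a pseudocount of 1 CPM. Genes needed detection in at least 25% of either group, and Calb1 was left out. Size was judged by a difference of at least 1. No test was run, because no mouse is named for a neuron and each group then counts as 1 sample. Thinning used 1 seeded draw. Python 3.11.15, numpy 2.4.6, scipy 1.17.1 and pandas 2.3.3 were used, and edgeR 4.0.16 and DESeq2 1.42.0 gave alternative library sizes only. The scripts were tested on simulated data. The genes named were the split and marker genes, the 10 with the largest difference each way whose detection and thinned difference had the same sign, and the 2 outermost members of each list each way. Other list members and the 3 genes beyond the SD were named after their values were seen, as were the subsets by astrocyte sum and by 1800 Apoe counts. The members and lists were chosen with earlier results of these data known. Values of some listed genes are not reported here.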

Additional observations from a re-analysis of the deposited data

How the results depend on the processing

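Over 20 alternative settings, 20 recomputed values moved beyond the spread between neurons, the binomial interval or 1.5 times a count, and 10 changed sign. All 20 that moved were shares or counts of genes. Differences were held to the spread, a wide limit, so one that did not move is not shown to be stable. The Apoe difference of 1.23 was 0.17 as a log2 ratio of means. The ACP gene median of 0.67 was 0.22 at the lower astrocyte sums. The share with Calb1 was 31.7% at no more than 900 Apoe counts, 56.8% and 34.1% in the 44 neurons with the most and fewest genes, and 59.1% and 31.8% in those with the higher and lower astrocyte sums. The difference in median counts outside Rn45s became 150180 at no more than 900 Apoe counts and 97008 at the lower astrocyte sums. The Bche difference became 0.18 as a log2 ratio of means, 0.0745 with Calb1-positive set from 2 reads, 0.32 with at least 10 Bche reads, 0.30 at no more than 900 and 0.0784 at no more than 1800 Apoe counts, 0.58 with the fewest genes and 0.43 at the lower astrocyte sums. The ACV genes had a median of 0.23 at the higher astrocyte sums.

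Genes higher by at least 1, 11.5% of those tested, were 5.39% when scaled to all counts, 32.1% and 0.486% with pseudocounts of 0.1 and 10 CPM, and 31.1% at the higher astrocyte sums. Genes lower by at least 1, 0.503% of those tested, were 1.60% and 0.0347% with those pseudocounts, 3.23% as a log2 ratio of means, 0.289% in all ACV neurons, 1.03% with at least 10 Bche reads, 6.75% at no more than 900 and 1.93% at no more than 1800 Apoe counts, 2.94% and 9.42% with the most and fewest genes, and 1.06% and 7.85% at the higher and lower astrocyte sums. The ACV gene median, -0.23, was -0.040 with Calb1-positive set from 2 reads, -0.085 from 10 reads, -0.080 in all ACV neurons and -0.55 with the fewest genes. Smaller groups have wider means, and other causes of these shifts were not tested. No paired analysis was possible because the neurons carry no shared replicate numbers and the results come from no test. Depth limits detection of genes near 1 read, and the absence of mouse identity keeps neuron spread and mouse spread from being told apart.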
